A study of Mus musculus with 4 samples.

Results

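The 2-cell-like state genes are transcripts that mark a rare state of cultured mouse embryonic stem cells resembling the 2-cell embryo. A list of 41 symbols was taken from this gene module, and 39 of them were found through their Entrez numbers among the 24116 genes of the count table. Zscan4e and Eif1ad8 were not analysed here. Of the 39 members with a row, 24 passed the filter on low counts and were tested, 15 were too low to test, and 2 of those 15, Tdpoz5 and Gm4340, had no count in any library.

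RNA-seq of embryonic stem cells of strain 12910la asked how gene expression responds to loss of Kdm2a, which encodes an enzyme that removes methyl groups from lysine 36 of histone H3. Of the 4 libraries, 2 were labelled Kdm2a knockout and 2 wild type, and all came from cells grown on gelatin in serum medium with LIF, the cytokine that holds these cells in self-renewal. The knockout line was 1 clone, expanded after transfection of a guide RNA and a sort for GFP. A trait of that clone and an effect of losing Kdm2a therefore cannot be told apart. The titles name a knockout, but the genotype field of these samples names a knock-down. Whether the libraries of a group were separate cultures is not given, and p-values therefore measure only the spread between these libraries, which may be technical.

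In the embryo, the genome is first transcribed strongly at the 2-cell stage, when retroviral elements of the MERVL class and a set of genes that includes many young, duplicated families are switched on together. In embryonic stem cell cultures a small and changing share of cells enters a similar state for a short time. The homeodomain factor DUX activates much of this programme, and ZSCAN4 proteins, which take part in telomere maintenance, are its most used markers. In a bulk library, fewer cells in the state and less RNA per such cell cannot be told apart.

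The Zscan4 genes took the largest share of the member reads in each of the 4 libraries, and their promoters show what the family shares. The 4 lines below give 101 bases, all upstream of the annotated start site and beginning 30 bases before the first motif, for each Zscan4 gene with a motif in its RefSeq promoter (GRCm38.p6). The first run in capitals is a match to TGAT followed by any 3 bases and ATCA, an inverted pair of the TGAT core that paired homeodomains such as that of DUX bind, and the second is a TATAAA box. Positions are chr7:10905071-10905171 on the minus strand for Zscan4b, chr7:11005601-11005701 on the plus strand for Zscan4c, chr7:11166203-11166303 on the minus strand for Zscan4d and chr7:11397794-11397894 on the plus strand for Zscan4f.
Zscan4b: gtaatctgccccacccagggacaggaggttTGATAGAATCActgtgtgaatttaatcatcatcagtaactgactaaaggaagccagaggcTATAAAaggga
Zscan4c: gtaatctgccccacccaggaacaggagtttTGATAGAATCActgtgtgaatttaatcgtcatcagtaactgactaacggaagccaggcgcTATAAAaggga
Zscan4d: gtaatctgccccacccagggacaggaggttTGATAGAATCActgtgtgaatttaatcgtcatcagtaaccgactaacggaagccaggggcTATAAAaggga
Zscan4f: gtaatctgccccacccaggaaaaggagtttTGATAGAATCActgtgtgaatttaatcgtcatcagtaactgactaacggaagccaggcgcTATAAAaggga

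The excerpts of Zscan4c and Zscan4f were identical at 100 of 101 bases, and the least alike pair, Zscan4b and Zscan4f, at 94. In these 4 promoters the TGATAGAATCA match began 91, 114, 125 and 91 bases before the annotated start of Zscan4b, Zscan4c, Zscan4d and Zscan4f. Over both strands of the 300-base RefSeq promoters, this inverted pair occurred in 4 of the 27 promoters found for 26 members, which is 14.8%, against 159 of all 32851 promoters, which is 0.484%. The 4 were those of the Zscan4 genes printed above, which are copies of one another and so count as 1 family rather than as independent matches. TGCACAC, the core bound by ZSCAN4, occurred in 0 member promoters, against 4.40% of all promoters. TATAAA, searched after the sequences had been seen, occurred in 8 member promoters (29.6%), against 13.6% of all. These were the Zscan4 promoters printed above and those of Usp17lb, Usp17lc, Usp17ld and Gm13119. Most are thus family copies rather than independent matches. A match is a description of letters and says nothing of binding in these cells.

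Kdm2a itself had 3710 and 4753 counts in the libraries labelled knockout, against 2899 and 3554 in the wild-type libraries. The log2 fold change was 0.44 (SE 0.24; edgeR quasi-likelihood test, adjusted p = 1.00), so the RNA of the target gene was not lower, and every direction below rests on the labels alone. Total counts lay between 18844246 and 19056529, so 3 counts, about the 95% upper limit for a count of 0, correspond to 0.156 to 0.165 CPM. CPM here are counts relative to the library total, scaled by TMM. Limits and intervals cover counting error only and leave out the spread between libraries. PCR copies of a molecule count as reads of their own, so these intervals may be too narrow even for counting error. The embryonic stem cell markers Pou5f1, Sox2 and Nanog were high in every library, with Pou5f1 at 1073 and 922 CPM in the libraries labelled knockout, against 1066 and 812 CPM in wild type. Over all tested genes the library labelled knockout 1 correlated better with wild type 1 (r = 0.984) and wild type 2 (r = 0.978) than with knockout 2 (r = 0.952), a description across genes, which are not independent replicates. Knockout 2 correlated at r = 0.938 with wild type 1 and 0.959 with wild type 2, and the wild-type libraries at 0.968 with each other. Every other library thus correlated least with knockout 2.

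The members together did not separate the labels. They summed to 1474 counts in knockout 1 and 401 in knockout 2, against 976 in wild type 1 and 1764 in wild type 2. In scaled units these are 77.0 and 22.0 CPM, against 51.0 and 91.5 CPM in wild type. The mean was 49.5 ± 38.9 CPM in the libraries labelled knockout and 71.2 ± 28.6 CPM in wild type (SD, n = 2 each). Knockout 2 stood lowest and wild type 2 highest, while knockout 1 lay between the wild-type libraries, so the groups overlapped.

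The edgeR quasi-likelihood test called 0 of the 24 tested members at an adjusted p under 0.05, and 0% of the 14194 genes tested. At an unadjusted p under 0.05 there was 1 member, BB287469, which was lower, against 0.817% of all genes lower and 0.888% higher. DESeq2 called 0 members against 0.0141% of all genes, limma-voom called 0 against 0%, and the edgeR likelihood ratio test called 1, again BB287469, against 0.0282%. A negative log2 fold change was found in 19 of 24 tested members (79.2%), against 49.5% of all genes, and a positive one in 5 (20.8%), against 50.5%. The member median was -0.44, against 0.00. That median rested on single libraries, since it was 0.21 without wild type 2, 0.12 without knockout 2, -0.89 without wild type 1 and -1.85 without knockout 1. Both libraries labelled knockout lay below both wild-type libraries for 3 tested members (12.5%), against 12.7% of all genes, and above both for 0 members, against 11.7%. Among these 3, BB287469 and AF067061 passed the filter on low counts only through the wild-type libraries, so the filter favoured this direction for them.

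**Figure D1:**
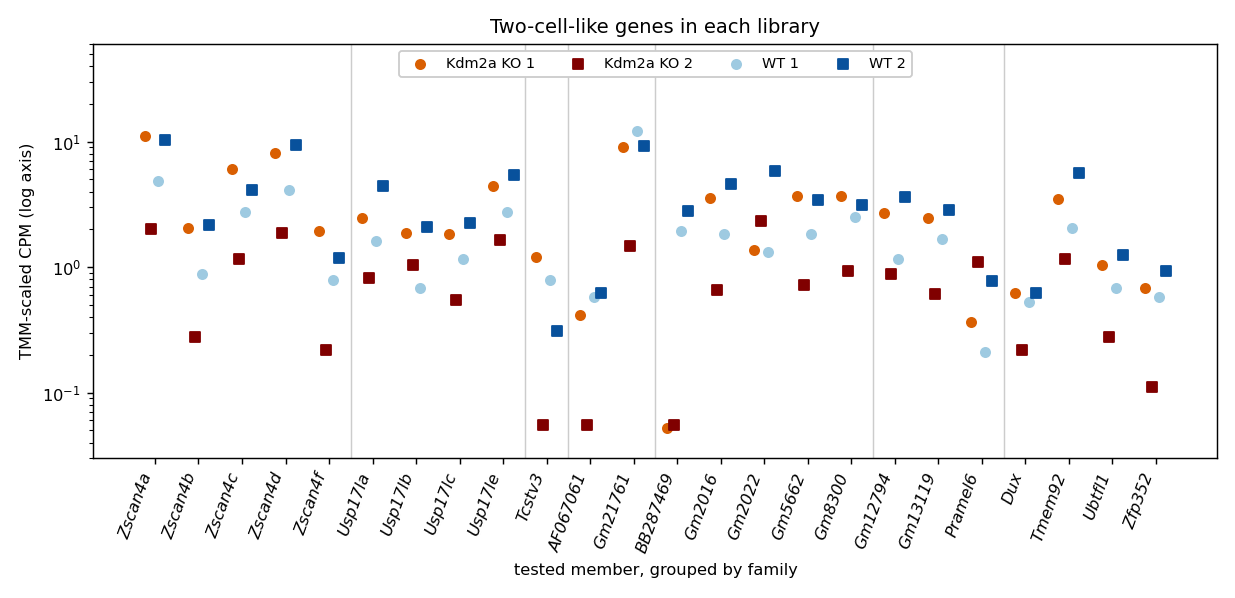
TMM-scaled CPM (log axis) of the 24 tested members in each library, with families split by vertical lines and 1 point per library. Knockout 2 is the lowest of the 4 libraries for 20 members, and BB287469 is the member at which both libraries labelled knockout lie far below both wild-type libraries.

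The larger differences lay within the labels. Knockout 2 was the lowest of the 4 libraries for 20 of 24 tested members (83.3%), against 33.4% of all genes, and was 2-fold or more below knockout 1 for 20 members, against 9.60% of all genes. It was 4-fold or more below knockout 1 for 12 members, against 2.42% of all genes. Wild type 2 was at or over 2 times wild type 1 for 10 members (41.7%), against 5.25% of all genes, and exceeded wild type 1 at all for 22 members (91.7%), against 47.5%. For 14 members knockout 1 was bracketed by the wild-type libraries (58.3%), against 48.3% of all genes. It was above both for 7 (29.2%), against 25.4%, and below both for 3 (12.5%), against 26.3%.

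As log2 differences, the member medians against the wild-type mean were 0.17 in knockout 1 and -1.63 in knockout 2, and -0.44 in wild type 1 and 0.44 in wild type 2. The same medians over all tested genes lay within 0.01 of 0 in each library. Members were both higher in wild type 2 than in wild type 1 and lower in knockout 2 than in knockout 1 in 19 of 24 cases (79.2%), against 16.5% of all genes. These shares describe the 4 libraries, and since the members of a family share sequence and reads they are not independent counts. Other markers moved across the same libraries: the summed level of 10 embryonic stem cell markers was 6952 and 5477 CPM in the libraries labelled knockout, against 6717 and 6402 CPM in wild type. For 7 primitive endoderm markers it was 10.7 and 18.0 CPM, against 13.8 and 6.59 CPM in wild type. The stem cell sum was lowest in knockout 2, where 6 of its 10 genes were lowest and Esrrb was highest. The endoderm sum was highest there through Sox7 and Foxa2, at 3.30 and 3.24 CPM in knockout 2, while Sox17 and Pdgfra were lowest in that library. Fibroblast markers, 9 in number and with Lum at 0, summed to 1984 and 2983 CPM, against 2244 and 1916 CPM in wild type. Trophoblast markers (8 genes) summed to 74.4 and 117 CPM, against 109 and 64.5 CPM in wild type. Neural markers (6 genes, Neurog2 at 0) summed to 124 and 167 CPM, against 95.9 and 125 CPM, and mesoderm markers (5 genes) to 12.1 and 29.8 CPM, against 14.5 and 19.5 CPM in wild type. These 4 sums too were highest in knockout 2, but single genes did not all follow. Fn1 and Vim made up most of the fibroblast sum, while Col1a1 was lowest in knockout 2. Krt8 and Krt18 of the trophoblast list were lowest there as well, and Eomes, which is in both lists, carried most of the mesoderm sum. Knockout 2 was highest for 5 of 6 neural markers. No gene of these lists passed the edgeR test, which called 0% of all genes. The part of these markers in the level of the 2-cell-like genes was not tested.

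**Figure D2:**
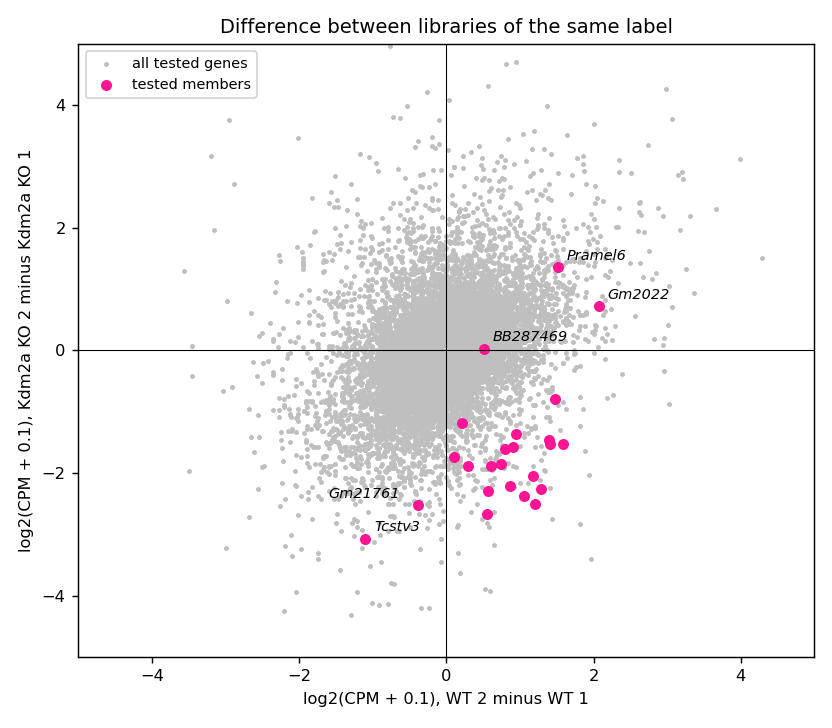
Difference of log2(CPM + 0.1) between the libraries of each label, wild type 2 minus wild type 1 on the horizontal axis and knockout 2 minus knockout 1 on the vertical axis, for all tested genes (grey) and the 24 tested members (coloured); 5 genes lie outside the axes. Of the 24 members, 19 lie in the lower right quadrant, and Pramel6, Gm2022 and BB287469 lie at or above 0 on the vertical axis.

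Dux, the homeodomain activator at the head of the programme, was near the detection limit. Its row (Entrez 664783, also named Duxf3) held 12 and 4 counts in the libraries labelled knockout, against 10 and 12 in wild type, and its log2 fold change was -0.42 (SE 0.80; edgeR adjusted p = 1.00). Knockout 2 was lowest and the other 3 libraries were alike, so the groups overlapped. Dux lies in a tandem repeat, and 47% of its 50-base windows occur in another annotated gene.

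The Zscan4 genes, which lie between 10794241 and 11402318 on chromosome 7, encode zinc-finger and SCAN-domain proteins and were the most abundant family. Zscan4a, annotated as a transcribed pseudogene, had 211 and 37 counts in the libraries labelled knockout, against 93 and 198 in wild type. Zscan4d had 154 and 34 counts, against 79 and 181 in wild type, and Zscan4c 116 and 21, against 53 and 80. In all these rows knockout 2 was lowest and knockout 1 was at or near the top. Zscan4b had 39 and 5 counts in the libraries labelled knockout, against 17 and 42 in wild type, and Zscan4f 37 and 4, against 15 and 23. Log2 fold changes lay between -0.44 (SE 0.74) for Zscan4d and 0.13 (SE 0.96) for Zscan4f, and none passed the edgeR test (adjusted p = 1.00 each). The copies share long stretches, with 90.1%, 85.5%, 49.6% and 86.8% of the 50-base windows of Zscan4b, Zscan4c, Zscan4d and Zscan4f found in another annotated gene, so how their reads were divided is uncertain.

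A sum over the 5 rows does not depend on how reads were divided among them, but it does depend on reads shared with copies outside them. Zscan4b shares 85.3% of its windows with Zscan4e, and Zscan4c and Zscan4f share 71.4% and 77.1% with the pseudogene Zscan4-ps2, neither of which was analysed here. The sum was 557 and 101 counts in the libraries labelled knockout, against 257 and 524 in wild type, or 29.1 and 5.55 CPM, against 13.4 and 27.2 CPM. Knockout 2 held 0.191 times the CPM of knockout 1 (95% exact interval 0.153 to 0.236, counting error only), and wild type 2 held 2.02 times that of wild type 1 (1.74 to 2.36). Knockout 1 and wild type 2 were alike, at a ratio of 1.07 (0.949 to 1.21). Tested as 1 feature, the Zscan4 sum had a log2 fold change of -0.23 (SE 0.72; edgeR adjusted p = 1.00).

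The other DNA-binding members were scarcer. Zfp352, a zinc-finger gene of the early embryo, had 13 and 2 counts in the libraries labelled knockout, against 11 and 18 in wild type, and Ubtfl1, an HMG-box gene of the preimplantation embryo, 20 and 5, against 13 and 24. Spz1, a transcription factor known from spermatogenesis, had 7 and 2, against 5 and 11, and was not tested. All 3 were lowest in knockout 2 and highest in wild type 2, with fold changes of -0.91 (SE 0.92) for Zfp352 and -0.53 (SE 0.82) for Ubtfl1. Sp110, a nuclear body protein, had 1 count in each library labelled knockout, against 0 and 5 in wild type. Tmem92, a transmembrane protein, shares few windows with other genes (1.93%). It had 67 and 21 counts in the libraries labelled knockout, against 39 and 108 in wild type (log2 fold change -0.71, SE 0.74; edgeR adjusted p = 1.00). Tmem92 thus had the order of libraries seen in the Zscan4 family apart from the top place, in a gene whose reads are nearly all its own.

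**Figure D3:**
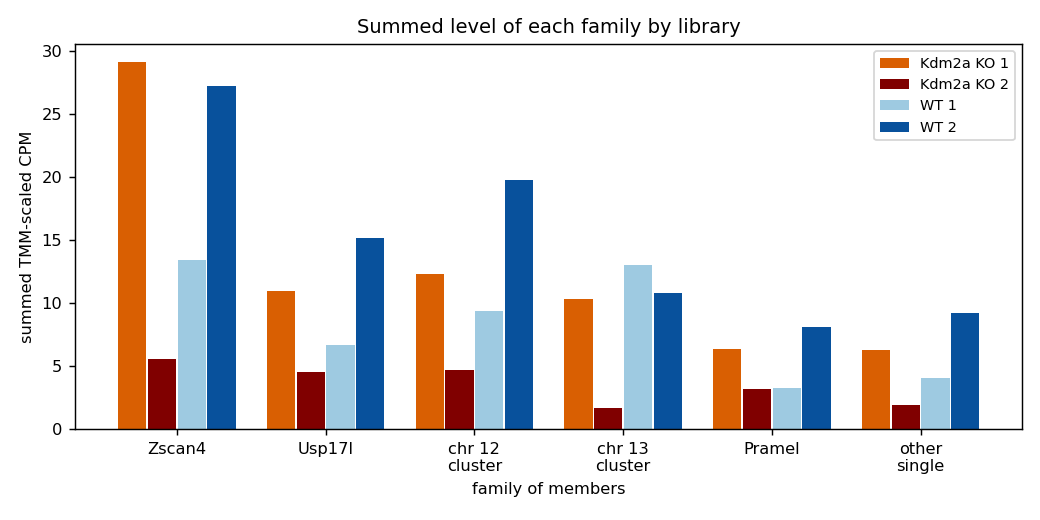
Summed TMM-scaled CPM of 6 families of members in each library, 1 bar per library, from 0. Knockout 2 is lowest in all 6, though in Pramel it is close to wild type 1 (3.19 against 3.29 CPM). Knockout 1 is highest for Zscan4, wild type 1 is highest for the chromosome 13 cluster, and wild type 2 is highest for the other 4. The sparse Tcstv and Tdpoz families are not drawn. In Tdpoz knockout 2 (0.440 CPM) is above wild type 1 (0.261 CPM).

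The Usp17l genes encode deubiquitinating enzymes, which remove ubiquitin from proteins, and lie on chromosome 7 between 103250086 and 104862667. Usp17le, the most abundant, had 84 and 30 counts in the libraries labelled knockout, against 53 and 105 in wild type. Usp17la had 47 and 15, against 31 and 85 in wild type, and Usp17lc 35 and 10, against 22 and 43. Knockout 2 was again lowest and wild type 2 highest in these 3. Usp17lb had 36 and 19, against 13 and 40, so here wild type 1 was lowest. Usp17ld, with 8 and 8 counts against 9 and 21, was not tested. The fold changes of the 4 tested rows ran between -0.87 (SE 0.76) for Usp17la and 0.09 (SE 0.74) for Usp17lb, and none passed (edgeR adjusted p = 1.00 each). The family summed to 210 and 82 counts in the libraries labelled knockout, against 128 and 294 in wild type. Knockout 2 stood at 0.411 times knockout 1 in CPM (0.314 to 0.533), a lesser gap than the 0.191 of Zscan4, with intervals that do not overlap.

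Tdpoz genes, which encode proteins with TRAF and POZ domains that can serve ubiquitin ligases, were nearly silent. All 5 rows together had 8 and 8 counts in the libraries labelled knockout, against 5 and 15 in wild type, and none was tested.

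The chromosome 13 members include the Tcstv genes and a cluster of related genes around them, of which Gm21761 was the most abundant. The tested members of the cluster were Gm21761 and AF067061. The 100 bases before their start sites are printed to show how alike these stretches are. Positions are chr13:119913469-119913568 on the minus strand for Gm21761 and chr13:120262995-120263094 on the plus strand for AF067061. The sequences are from RefSeq, GRCm38.p6, with a TATATAA run in capitals.
Gm21761: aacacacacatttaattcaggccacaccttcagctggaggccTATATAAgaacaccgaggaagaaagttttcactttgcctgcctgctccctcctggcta
AF067061: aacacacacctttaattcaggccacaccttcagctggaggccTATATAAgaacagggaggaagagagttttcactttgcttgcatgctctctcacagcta

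The pair was identical at 90 of 100 bases, and TATATAA, chosen after the sequences were seen, occurred in 3.24% of all promoters. Their transcripts were less alike: 12.7% of the 50-base windows of AF067061 occur in Gm21761, and 13.5% the other way. Gm21761 had 172 and 27 counts in the libraries labelled knockout, against 232 and 179 in wild type. Both libraries labelled knockout were below both wild-type libraries, but by little in knockout 1, and the log2 fold change of -1.03 (SE 0.76) did not pass (edgeR unadjusted p = 0.215, adjusted p = 1.00). AF067061 had 8 and 1 counts, against 11 and 12 in wild type, and was also separated, at -1.30 (SE 0.96; edgeR adjusted p = 1.00). AF067061 passed the filter on low counts only through the wild-type libraries, so the filter favoured this direction. Both folds leaned on knockout 2: without it they were -0.25 and -0.51. Unlike most members, Gm21761 was not higher in wild type 2, at 0.766 times wild type 1 in CPM (0.626 to 0.934). Of its 50-base windows 76.2% occur in another annotated gene, so reads may be shared with genes outside the list. Gm20767, outside the members, holds 63.2% of them. It had 22 and 4 counts in the libraries labelled knockout, against 13 and 36 in wild type, so it was higher in wild type 2. How reads were divided between Gm21761 and Gm20767 was not tested. Tcstv3 had 23 and 1 counts in the libraries labelled knockout, against 15 and 6 in wild type, and Tcstv1 1 and 0, against 1 and 2. AF067063, BC147527 and B020031M17Rik had at most 9 counts in any library and were not tested.

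The chromosome 12 members belong to a cluster of genes related to translation initiation factor EIF1A, between 87514316 and 88274497. Gm8300 had 71 and 17 counts in the libraries labelled knockout, against 48 and 60 in wild type. Gm5662 had 70 and 13, against 35 and 66 in wild type, and Gm2016 68 and 12, against 35 and 89. Knockout 2 was lowest in these 3, as in the Zscan4 genes, and their sum in knockout 2 was 0.211 times that in knockout 1 in CPM (0.148 to 0.296). In Gm2022 it was not: this gene had 26 and 42 counts in the libraries labelled knockout, against 25 and 112 in wild type. Its ratio of knockout 2 to knockout 1 was 1.70 (1.02 to 2.89). The fold changes of these 4 lay between -0.95 (SE 0.78) for Gm2022 and -0.26 (SE 0.81) for Gm5662 (edgeR adjusted p = 1.00 each).

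BB287469 stood apart from its neighbours in the cluster. Since it had 93 counts in all, under the 100 set for description by library, it was singled out after its values were seen. It had 1 and 1 counts in the libraries labelled knockout, against 37 and 54 in wild type, or 0.0522 and 0.0550 CPM, against 1.93 and 2.80 CPM. The groups did not overlap, and the libraries labelled knockout together held 2.26% of the wild-type CPM (95% exact interval 0.270 to 8.41, counting error only). Both values labelled knockout lie below the CPM that 3 counts correspond to. The row passed the filter on low counts only through the wild-type libraries, so the filter favoured this direction. The log2 fold change was -5.30 (SE 0.83), with an unadjusted p of 0.000379 and an adjusted p of 1.00 by the edgeR quasi-likelihood test. DESeq2 gave -5.46 (SE 1.38) and an adjusted p of 0.159, while the likelihood ratio test, which does not allow for uncertainty in each gene's spread, gave an adjusted p of 0.000169. It was low in knockout 1, in which Gm8300, Gm5662 and Gm2016 were each higher than in wild type 1, and it changed little with a library left out, between -5.54 and -5.00.

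The libraries labelled knockout came from 1 clone, so a trait of that clone cannot be told apart from the label for BB287469. Counting of this cluster also limits what BB287469 shows. Of its 50-base windows 96.6% occur in another annotated gene, and 94.3% occur in Gm4027, a gene not analysed here. Gm2022 shares 97.2% of its windows. When the 5 chromosome 12 members were summed, they had 236 and 85 counts in the libraries labelled knockout, against 180 and 381 in wild type. The sum had a log2 fold change of -0.78 (SE 0.58; edgeR adjusted p = 1.00), and the groups overlapped. BB287469 shares at most 9.77% of its windows with any other of these members, and Gm4027 is not in the sum. The sum therefore describes the cluster and does not show how reads of BB287469 were divided. Whether the division of reads among copies differed between libraries was not tested.

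**Figure D4:**
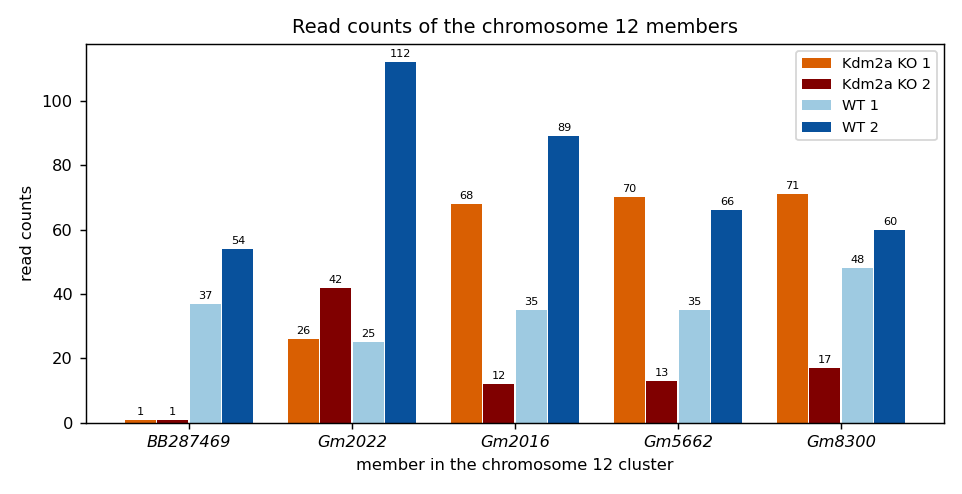
Read counts of the 5 chromosome 12 members in each library, with the count above each bar. BB287469 has 1 count in each library labelled knockout and 37 and 54 in wild type, whereas Gm2016, Gm5662 and Gm8300 have 68 to 71 counts in knockout 1 and 12 to 17 in knockout 2.

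The Pramel members belong to the PRAME-like family of leucine-rich repeat proteins. Gm12794, also named Pramel19, had 52 and 16 counts in the libraries labelled knockout, against 22 and 70 in wild type, and Gm13119, also named Pramel31, 47 and 11, against 32 and 55. Their fold changes were -0.41 (SE 0.80) and -0.56 (SE 0.77; edgeR adjusted p = 1.00 each). B020004J07Rik had 12 and 1 counts, against 2 and 7, and was not tested. Pramel6 and Pramel7, neighbours on chromosome 2, went the other way in knockout 2. Pramel6, which shares none of its windows with another gene, had 7 and 20 counts in the libraries labelled knockout, against 4 and 15 in wild type (log2 fold change 0.56, SE 0.91). Pramel7, known in mouse to lower UHRF1, a cofactor of DNA methylation, had 4 and 10, against 3 and 9 in wild type. Both genes were higher in replicate 2 of each label, and neither pair of groups separated.

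The share of member reads taken by each family also differed between libraries. Zscan4 took 37.8% of them in knockout 1 (95% exact interval 35.3 to 40.3) and 25.2% in knockout 2 (21.0 to 29.7), against 26.3% in wild type 1 (23.6 to 29.2) and 29.7% in wild type 2 (27.6 to 31.9). The chromosome 13 cluster took 13.4% in knockout 1 and 7.73% in knockout 2, against 25.5% in wild type 1 and 11.8% in wild type 2. The chromosome 13 share was thus highest in wild type 1, where Gm21761 alone gave 23.8% of all member reads. Pramel genes took 8.28% and 14.5% in the libraries labelled knockout, against 6.45% and 8.84% in wild type. No family's share put both libraries labelled knockout on 1 side of both wild-type libraries.

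**Figure D5:**
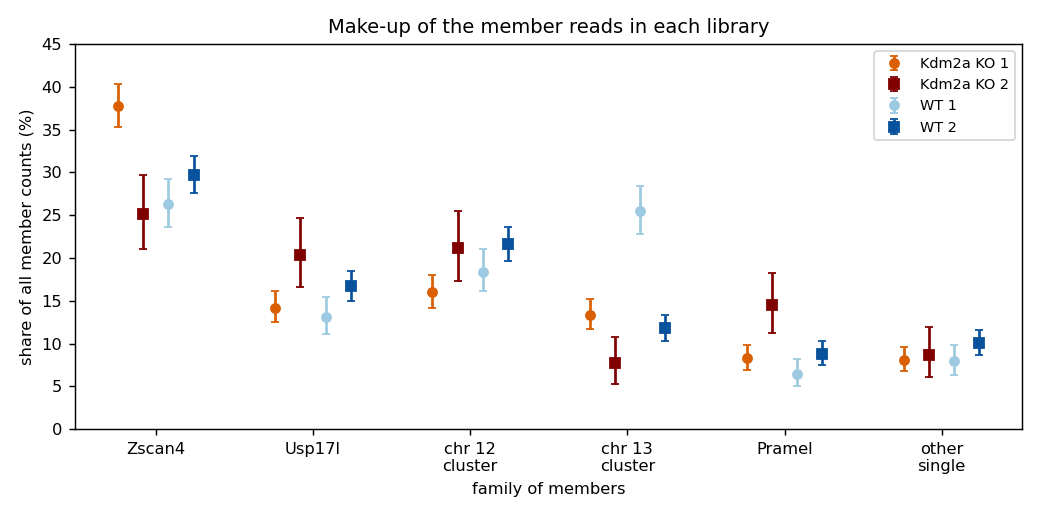
Share of all member counts (%) taken by each of 6 families in each library, with 95% exact binomial intervals that cover counting error only. Wild type 1 has the highest chromosome 13 share (25.5%) and knockout 1 the highest Zscan4 share (37.8%).

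Per length of transcript, the members were low compared with other genes. The median over the 23 tested members with a length was 0.905 RPKM (CPM per kilobase of transcript, mean of 4 libraries), against 5.89 RPKM over 13548 tested genes with a length. Gm2022 and Gm21761 headed the order with means of 6.20 and 5.80 RPKM. Gm2022 had 3.12 and 5.31 RPKM in the libraries labelled knockout, against 3.00 and 13.4 RPKM in wild type, and Gm21761 6.54 and 1.08, against 8.82 and 6.75 RPKM. These neighbours in the order overlapped widely, and the high place of Gm2022 rests on an annotated length of only 435 bases. Zscan4d followed at 2.58 RPKM, then Usp17le at 1.79 and Zscan4c at 1.55, again within the spread of each other, and Dux was at 0.185.

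No upstream regulator of the state passed the edgeR test, which called 0% of the 14194 genes tested. Of 5 activators, DPPA2 and DPPA4, chromatin proteins that bind the Dux locus, NELFA and p53 were measurable. Dppa2 had 71.2 and 124 CPM in the libraries labelled knockout, against 60.9 and 129 CPM in wild type (log2 fold change 0.04, SE 0.42). Dppa4 had 127 and 105 CPM, against 111 and 104 CPM in wild type, and Nelfa 142 and 128, against 140 and 148. Trp53 had 534 and 503 CPM, against 412 and 533 CPM in wild type. The groups overlapped for all 4. Dppa2 was high in both replicate 2 libraries, and Nelfa, though it varied little, was lowest in knockout 2 and highest in wild type 2. Mbd3l2 had 1 count, in wild type 2. None of the 4 tested passed (edgeR adjusted p = 1.00 each).

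Repressors and modulators were 34 genes that include the TRIM28 and SETDB1 silencers, the CAF-1 assembly factors and variant Polycomb subunits. The test called 0 of them, against 0% of all genes. Fold changes were negative for 10 of the 34 and positive for 24, against 49.5% and 50.5% of all genes. Their median was 0.10, against 0.00 over all tested genes. The lowest p-value was that of Dppa3, a maternal factor that protects DNA methylation in the early embryo. It had 29 and 4 counts in the libraries labelled knockout, against 44 and 40 in wild type (log2 fold change -1.32, SE 0.86; edgeR unadjusted p = 0.170, adjusted p = 1.00). Zfp809, which directs TRIM28 to proviruses, followed with 22.8 and 30.2 CPM, against 13.8 and 23.6 CPM in wild type (0.51, SE 0.36). Mga, a subunit of the PRC1.6 repressor, had 273 and 529 CPM, against 269 and 332 CPM (0.41, SE 0.33). Both libraries labelled knockout were below wild type for Dppa3, by most in knockout 2, and the groups overlapped for Zfp809. For Mga, knockout 2 was highest.

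Other genes of the 2-cell stage, a list of 50 outside the members, had 38 with a row and 16 tested. Of these 0 were called, against 0% of all genes. Fold changes were negative for 12 and positive for 4, against 49.5% and 50.5% of all genes, and the median was -0.70. Knockout 2 was the lowest library for 12 of the 16, against 33.4% of all genes. Both libraries labelled knockout lay below both wild-type libraries for 6 of the 16, against 12.7% of all genes. They lay above both for 0, against 11.7%. Each of those 6 genes had at most 58 counts in any library. The most abundant were metallothioneins, which bind metals and are induced by them, and their fold changes were positive. Mt2 had 250 and 546 CPM in the libraries labelled knockout, against 258 and 51.7 CPM in wild type (log2 fold change 1.36, SE 0.70), and Mt1 136 and 427, against 172 and 63.3 (1.26, SE 0.62). Gm8994, related to the helicase EIF4A3, had 242 and 24 counts in the libraries labelled knockout, against 134 and 211 in wild type (-0.36, SE 0.88; edgeR adjusted p = 1.00 for each of the 3). Gm8994 had knockout 2 far below the rest, and the same order of libraries as the Zscan4 sum.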

How the data were processed

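The authors deposited raw read counts per gene for 4 libraries, with genes named by Entrez number. They used the mm10 build with HISAT2 and featureCounts, per the submitters' processing notes. How strand and multiply mapping reads were handled is not given in the sources read here, so overlapping genes and copies may be merged or split. Symbols came from RefSeq for GRCm38.p6 (24061 genes) and GENCODE (7 more, among them Dux). Groups and replicate numbers came from the sample titles. Genes kept by filterByExpr (14194) were tested with edgeR 4.0.16 (R 4.3.3): TMM scaling, the quasi-likelihood F test of label, and Benjamini-Hochberg adjustment over all of them at 0.05. Fold changes are knockout minus wild type. The code was tested on simulated counts. Alternatives were DESeq2 1.42.0, limma-voom 3.58.1, the likelihood ratio test, other scalings and filters, a replicate block, families summed by name stem or, added after seeing the data, by shared 50-base windows, and each library left out. Ratio intervals are exact conditional binomial, and share intervals exact Clopper-Pearson. Members with at least 100 counts are given by library and the rest by counts and ranges, with Kdm2a, the activators, the 3 lowest p-values among repressors and the 3 most abundant other 2-cell genes. Members and lists were chosen with earlier results of these data known. Protein identity could not be computed, so families follow name stems and positions.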

Additional observations from a re-analysis of the deposited data

How the results depend on the processing

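Of 24 tested members, 19 had a negative fold change under the 3 other scalings, without a filter beyond 1 count, with DESeq2 and with the likelihood ratio test, and 0 changed direction. With DESeq2 2 genes were called, and with the likelihood ratio test 4 genes and 1 member, BB287469, at a log2 fold change of -5.30. Under limma-voom 22 members were negative, and Tcstv3, Zscan4c and Zscan4f turned to -0.69, -0.33 and -0.50. Leaving out a library moved the count of genes called over 0 to 91 (91 without knockout 1, 8 without knockout 2) and the member median over -1.85 to 0.21. Without knockout 1, 9 of 27 members had an unadjusted p under 0.05 (33.3%), against 12.5% of all genes, and 0 were called. Directions turned with a library left out for 20 members, whose log2 fold changes ran over -3.17 to 1.13 for Tcstv3, -2.45 to 0.41 for Zscan4b, -2.28 to 0.22 for Gm2016, -2.14 to 0.96 for Zscan4f, -1.89 to 0.12 for Gm13119, -1.89 to 0.54 for Zscan4a, -1.87 to 0.48 for Gm5662, -1.86 to 0.03 for Usp17la, -1.85 to 0.28 for Zscan4d, -1.79 to 0.12 for Ubtfl1, -1.72 to 0.20 for Tmem92, -1.66 to 0.49 for Gm2022, -1.61 to 0.11 for Usp17lc, -1.58 to 0.40 for Gm8300, -1.58 to 0.81 for Zscan4c, -1.44 to 0.66 for Gm12794, -1.36 to 0.13 for Dux, -1.32 to 0.14 for Usp17le, -0.50 to 1.11 for Usp17lb and -0.43 to 1.78 for Pramel6. Gm21761, AF067061, Zfp352 and BB287469 kept their sign in all 4. The causes of these changes were not tested. The groups share replicate numbers, but no label pairs them: the differences between replicates of each label correlated at r = 0.35 over 14194 genes. With the replicate block edgeR called 0 genes (735 at an unadjusted p under 0.05) and 0 members (2 at that p), the member median was -0.62, and Tcstv3, Zscan4c and Zscan4f turned to -0.22, -0.28 and -0.28. Summing families by name stem or by shared windows gave a median of -0.53 over 17 features. The 15 members below the filter had at most 46 counts in all, so depth limits them.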
